A study of Mus musculus with 40 samples.

Results

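Arrdc1, Arrdc2, Arrdc3, Arrdc4 and Txnip, the 5 genes described here, belong to the alpha-arrestins, and were taken by name from a table of 23621 genes. They were selected on measured values of the same libraries, above all the difference between sessions in the response of Arrdc2 at the end of a run, which was -2.74 on the log2 scale (SE 0.58). For that reason the comparisons built on the +0h groups, and the comparison of sedentary muscle at ZT12 and ZT0, are given as values with no test, and the tests concern 9 other comparisons. All 5 genes passed the filter on low counts in both muscles.

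All 40 libraries were made from messenger RNA of C57BL/6 mouse muscle, and the labels name no transgene or mutation. Zeitgeber time (ZT) counts hours from lights on. Quadriceps came from mice after treadmill running until exhaustion, with the session at ZT0 or at ZT12. Tissue was taken right after the run (treadmill +0h, labelled ZT0.5 and ZT12.5) or 3 h after it (treadmill +3h, labelled ZT3.5 and ZT15.5). Sedentary mice gave quadriceps at ZT0, ZT4, ZT12 and ZT16, and each of these 8 groups holds 3 libraries. Gastrocnemius came from mice in chronic voluntary running with the wheel open by day (day wheel) or by night (night wheel, titled as the controls), taken at ZT4 or ZT16, with 4 libraries in each of 4 groups. All gastrocnemius groups had a wheel, so none is sedentary. The labels leave out age, sex, feeding and the number of weeks on the wheel. Between the wheel groups, the schedule and the time since the last running cannot be told apart. Each library carries its own tag and is treated as 1 mouse, which the labels do not state, so p-values measure the spread between these libraries.

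Alpha-arrestins share the arrestin fold with the beta-arrestins and carry PPxY motifs through which they bind ubiquitin ligases of the NEDD4 family. They act as adaptors that bring receptors and transporters to the ligase, after which the cargo is ubiquitinated and taken into the cell. Txnip also binds thioredoxin, restrains glucose uptake through the transporters encoded by Slc2a1 and Slc2a4, and is among the genes most responsive to glucose through the MLX partners MondoA and ChREBP. Arrdc4 is its closest relative in that response. Arrdc3 binds cell surface receptors and Arrdc1 helps vesicles bud from the plasma membrane.

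The 250 bases before the annotated start are shown for Txnip, Arrdc4 and Arrdc2. These 3 genes were picked because their time effects differed between the wheel schedules and because their upstream letters differ. Whether the letters bear on those time effects was not tested. The stretches shown are RefSeq sequences of GRCm38.p6, written in the direction of the gene. Capitals mark matches, on either strand, to a ChoRE-type motif (CACGNG and CACGNG with 5 bases between them), an E-box (CACGTG), a FoxO-type motif (GTAAACA) and a CCAAT box (CCAAT).
Txnip, chr3:96557707-96557956, plus strand: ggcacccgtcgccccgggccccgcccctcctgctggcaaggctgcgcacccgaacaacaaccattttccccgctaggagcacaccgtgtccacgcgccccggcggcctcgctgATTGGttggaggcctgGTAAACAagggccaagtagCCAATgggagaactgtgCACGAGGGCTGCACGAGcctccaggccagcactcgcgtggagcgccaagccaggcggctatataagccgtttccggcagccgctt
Arrdc4, chr7:68749239-68749488, minus strand: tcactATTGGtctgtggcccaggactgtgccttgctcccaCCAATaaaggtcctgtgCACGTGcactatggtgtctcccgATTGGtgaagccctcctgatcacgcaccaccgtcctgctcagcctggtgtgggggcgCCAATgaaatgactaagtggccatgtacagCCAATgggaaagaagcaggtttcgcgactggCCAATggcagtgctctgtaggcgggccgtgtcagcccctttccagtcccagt
Arrdc2, chr8:70839721-70839970, minus strand: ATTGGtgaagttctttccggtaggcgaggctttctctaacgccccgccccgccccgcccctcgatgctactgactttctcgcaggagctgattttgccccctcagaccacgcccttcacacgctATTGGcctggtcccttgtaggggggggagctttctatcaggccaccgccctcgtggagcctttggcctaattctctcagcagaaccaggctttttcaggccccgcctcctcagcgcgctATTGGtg
The ChoRE-type match of Txnip began 85 bases before the start, and 0.0457% of 32851 windows of the same length held one. Its FoxO-type match began 121 bases before the start, in a motif found in 3.17% of windows. The E-box of Arrdc4 lay 193 bases before the start, where 6.02% of windows held one anywhere. CCAAT boxes were found in 33.8% of windows, and 3 or more in 2.79%. Arrdc4 held 6 of them, Arrdc2 held 3 and Txnip held 2. Of the members not shown, Arrdc1 held none of the marked motifs and Arrdc3 only a CCAAT box. A match describes letters in this window and does not show that a factor binds there. No member window held a CRE (TGACGTCA, in 1.55% of windows) or a full palindrome of the glucocorticoid response element (AGAACA and TGTTCT with 3 bases between them, in 0.00913%), which says nothing about binding elsewhere.

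The genes lay at different levels. In bulk muscle, fewer cells of a type and less RNA per cell cannot be told apart. Per kilobase of annotated exon, the median level over the quadriceps libraries was 208 CPM (counts scaled to a common library total) for Txnip, 19.1 for Arrdc2, 9.59 for Arrdc3, 2.69 for Arrdc4 and 1.48 for Arrdc1. Summed counts per library ran from 109 to 324 for Arrdc1, from 351 to 1192 for Arrdc4, from 506 to 15322 for Arrdc2, from 657 to 9020 for Arrdc3 and from 14200 to 66706 for Txnip, so the values of Arrdc1 and Arrdc4 carry the most counting error. The range over groups differed as much. In quadriceps the highest group mean was 20.6 times the lowest for Arrdc2 and 8.04 times for Arrdc3, and 1.44 to 2.11 times for the other 3 genes.

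Libraries held 27352875 to 79491649 counts. The 6 skeletal muscle markers were all detected, and their summed level lay between 123811 and 192434 CPM over the 40 libraries. Summed markers of slow fibres, from 120 to 2775 CPM in quadriceps, and of adipocytes, from 375 to 2965 CPM, varied between mice of the same group. With the score of either list as a covariate, none of the members' calls in the 4 tested quadriceps comparisons was lost. That score was the mean log2 CPM of the listed markers, not their sum. Muscle markers summed to 162602 to 186654 CPM at +3h of the ZT12 session, against 131379 to 154194 CPM in sedentary ZT16 mice. Endothelial markers summed to 303 to 321 CPM in sedentary ZT16 mice. That lay below the 326 to 349 CPM at +3h of the ZT12 session and the 341 to 390 CPM in sedentary ZT4 mice. The part of these differences in the comparisons of these groups was not tested.

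Among the 9 tested comparisons, +3h of the ZT12 session and the time effect with the night wheel each moved 4 of the 5 members. An adjusted p under 0.05 in edgeR's quasi-likelihood test, over all genes of the muscle, counts as a pass. After the ZT12 session, 3 of 5 members rose at +3h, beside 8.7% of all genes tested, and 1 fell, beside 8.53%. After the ZT0 session 1 of 5 rose at +3h, beside 6.96%. In sedentary muscle at ZT16 against ZT4, 1 rose, beside 3.49%, and 1 fell, beside 3.67%. With day wheel against night wheel at ZT4, 2 rose, beside 6.36%, and 1 fell, beside 6.78%. These shares are the background against which each count of 5 genes is to be read, and they move with single libraries: 588 to 949 genes passed for sedentary ZT16 against ZT4 with 1 library left out, against 1081 with all (lowest without sedentary ZT4 mouse 1), and 1139 to 1650 for day against night wheel at ZT4, against 1907 with all (lowest without day wheel ZT4 mouse 3). At ZT16 the schedules gave 0 of 5 calls, beside 0.565% of genes, which is 82 genes; 1942 genes had an unadjusted p below 0.05, Arrdc2 and Txnip among them, and 374 were called by DESeq2. ZT16 against ZT4 with the night wheel raised 2 members, beside 9.41%, and lowered 2, beside 9.38%. With the day wheel it raised 2, beside 7.7%, and lowered 1, beside 7.17%. The difference between these time effects was above 0 for 2 members, beside 4.68%, and below 0 for 1, beside 5.07%. For the difference between the +3h responses 0 of 5 passed in edgeR, beside 1.59% or 240 genes; 1965 genes had an unadjusted p below 0.05, Txnip among them, and 448 were called by DESeq2.

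Counted by libraries that do not overlap between groups, 4 of 5 members stood apart at +3h of the ZT12 session, beside 32.9% of genes, and 2 at +3h of the ZT0 session, beside 30.7%. Sedentary ZT16 and ZT4 mice were apart for 3 members, beside 26.3%. Day and night wheel were apart for 3 at ZT4, beside 21.1%, and for 1 at ZT16, beside 6.67%. ZT16 and ZT4 were apart for 4 with the night wheel, beside 21.3%, and for 3 with the day wheel, beside 20.3%. The choice of genes shaped the counts at +0h, where 3 were apart in the ZT0 session, beside 24.9%, and 3 in the ZT12 session, beside 20.2%, and in sedentary ZT12 against ZT0 mice, where 4 were apart, beside 34.5%.

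**Figure D1:**
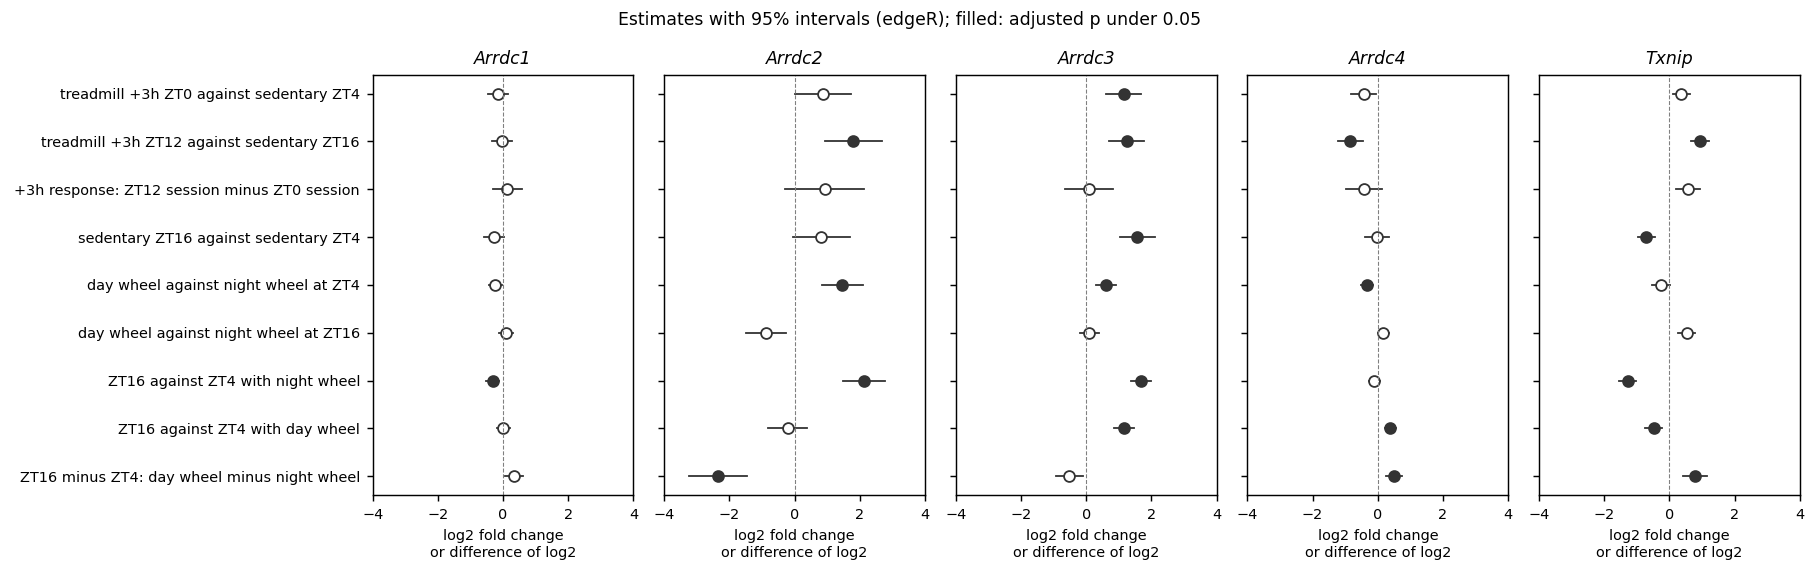
Log2 fold change, or difference of log2 fold changes, of each gene in each tested comparison (points), with 95% intervals (lines), and filled points where the adjusted p was under 0.05. The widest spread is in Arrdc2, from 2.13 for ZT16 against ZT4 with the night wheel to -2.35 for the difference between the schedules.

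Arrdc2 (gene identifier 70807, chromosome 8, 70835129 to 70839720, minus strand) is an adaptor of the family whose cargo is little known. With the night wheel it was much higher at ZT16 than at ZT4, and with the day wheel this time difference was not detected. In gastrocnemius of day wheel mice it stood at 27.7, 26.9, 39.9 and 34.6 CPM at ZT16, against 52.2, 24.7, 38.1 and 35.4 CPM at ZT4. In night wheel mice it stood at 64.1, 31.1, 68.1 and 76.0 CPM at ZT16, against 16.4, 10.6, 12.2 and 15.2 CPM at ZT4. The night wheel libraries of the 2 times did not overlap, nor did day and night wheel at ZT4, while the ZT4 and ZT16 libraries of day wheel mice overlapped. It rose with the day wheel at ZT4 by 1.46 on the log2 scale (SE 0.29, adjusted p = 0.0071). Day against night wheel at ZT16 gave a log2 fold change of -0.89 (SE 0.28, adjusted p = 0.18), which did not pass. ZT16 against ZT4 gave 2.13 with the night wheel (SE 0.30, adjusted p = 0.00030) and -0.22 with the day wheel (SE 0.28, adjusted p = 0.68). The difference of these time effects, day minus night, was -2.35 (SE 0.41, adjusted p = 0.0032).

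At +3h Arrdc2 was high in some mice and not in others. After the ZT0 session its libraries stood at 25.1, 34.9 and 73.7 CPM, against 19.8, 30.7 and 23.1 CPM in sedentary ZT4 mice. The groups overlapped, and the log2 fold change of 0.86 (SE 0.41, adjusted p = 0.19) did not pass. After the ZT12 session the +3h libraries stood at 71.7, 204 and 174 CPM, against 50.8, 37.1 and 42.1 CPM in sedentary ZT16 mice. All runners lay above all sedentary mice, with the first runner closest, and Arrdc2 rose by 1.79 (SE 0.41, adjusted p = 0.0060). When only these 6 libraries entered the fit, the adjusted p was 0.064. The difference between the +3h responses was 0.93 (95% interval -0.28 to 2.14), and 1.496 without runner 3 of the ZT0 session, with an adjusted p of 0.21 in edgeR. The direction turned with the sedentary control: against sedentary ZT12 and ZT0 mice, the libraries behind the choice of the genes and so given with no test, the log2 fold change was -0.41 after the ZT12 session and 2.17 after the ZT0 session, a difference of -2.59. In sedentary mice ZT16 against ZT4 gave 0.82 (SE 0.41, adjusted p = 0.29); these libraries also serve as the controls at +3h.

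At the end of the run, and at the start of the sessions, the values behind the choice of the genes are given with no test. At +0h of the ZT0 session Arrdc2 stood at 78.8, 56.0 and 67.3 CPM, against 9.80, 8.97 and 10.9 CPM in sedentary ZT0 mice. At +0h of the ZT12 session it stood at 283, 161 and 169 CPM, against 122, 281 and 195 CPM in sedentary ZT12 mice. The runners of the ZT0 session lay below every library of the ZT12 pair, and the ZT12 pair overlapped. The log2 fold change was 2.77 (SE 0.44) in the ZT0 session and 0.03 (SE 0.40) in the ZT12 session. The sedentary ZT12 level was 20.2-fold the sedentary ZT0 level, the widest step between sedentary groups of the 5 genes. Summed adipocyte markers ran from 459 to 2306 CPM at +0h of the ZT0 session and from 683 to 2965 CPM in sedentary ZT12 mice, against 473 to 913 CPM in sedentary ZT0 mice. Endothelial markers summed to 224 to 293 CPM in sedentary ZT12 mice, against 331 to 397 CPM in sedentary ZT0 mice, with no overlap. Muscle markers summed to 182717 to 192434 CPM at +0h of the ZT12 session, against 148952 to 164931 CPM in sedentary ZT12 mice, and to 141743 to 178863 CPM at +0h of the ZT0 session, against 123811 to 141100 CPM in sedentary ZT0 mice, with no overlap in either. The part of these in the values was not tested.

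Arrdc3 (gene identifier 105171, chromosome 13, 80883384 to 80896042, plus strand), which binds cell surface receptors and helps sort them inside the cell, was higher at ZT16 than at ZT4 in day wheel, night wheel and sedentary mice. In gastrocnemius it stood at 50.1, 39.6, 54.8 and 52.5 CPM in day wheel mice at ZT16, against 26.8, 21.4, 21.3 and 18.4 CPM at ZT4. Night wheel mice had 52.8, 35.3, 52.7 and 44.9 CPM at ZT16, against 15.1, 13.7, 15.02 and 14.1 CPM at ZT4. At neither schedule did the 2 times overlap. The rise at ZT16 was 1.16 with the day wheel (SE 0.14, adjusted p = 8.1e-05) and 1.68 with the night wheel (SE 0.14, adjusted p = 2.8e-06), and the difference of -0.52 did not pass (95% interval -0.94 to -0.09, adjusted p = 0.12). Without the second night wheel ZT16 mouse this difference was -0.63 and passed (adjusted p = 0.031). At ZT4 it rose with the day wheel by 0.60 (SE 0.14, adjusted p = 0.014), and at ZT16 the schedules differed by 0.09 (95% interval -0.20 to 0.38).

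In quadriceps Arrdc3 was also the member that rose at +3h of both sessions. After the ZT0 session its +3h libraries stood at 38.6, 30.7 and 38.9 CPM, against 14.1, 16.1 and 18.5 CPM in sedentary ZT4 mice. After the ZT12 session it stood at 66.9, 163 and 111 CPM, against 60.1, 40.6 and 43.4 CPM in sedentary ZT16 mice. In both cases all runners lay above all sedentary mice, in the second by a narrow margin. The log2 fold changes were 1.15 (SE 0.26, adjusted p = 0.0058) and 1.24 (SE 0.25, adjusted p = 0.0021), with a difference of 0.09 (95% interval -0.66 to 0.84). Against sedentary mice at the start of the session they were 0.40 and 0.69, given with no test, and in the fit of the second comparison's 6 libraries alone the adjusted p was 0.098. In sedentary mice it rose at ZT16 against ZT4 by 1.57 (SE 0.26, adjusted p = 0.00098). At +0h of the ZT0 session Arrdc3 had 77.4, 75.3 and 65.5 CPM, against 23.96, 27.2 and 31.1 CPM in sedentary ZT0 mice. At +0h of the ZT12 session it had 167, 123 and 101 CPM, against 60.01, 81.7 and 69.7 CPM in sedentary ZT12 mice. Neither pair overlapped.

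**Figure D2:**
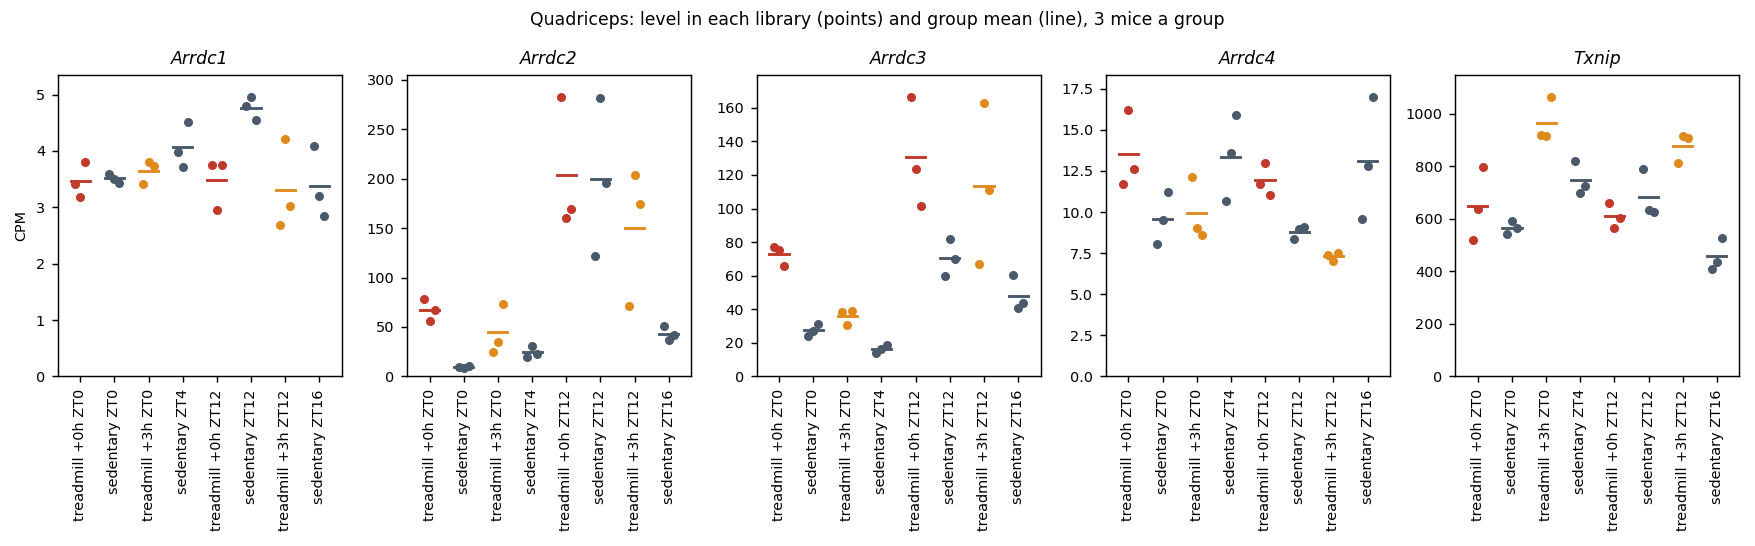
Level (CPM, linear axis from 0) of each gene in each quadriceps library (points) and the mean of the 3 mice of a group (lines); red is treadmill +0h, orange treadmill +3h and grey sedentary, each run group beside its sedentary group. Arrdc2 is highest in both groups of the ZT12 session and in sedentary ZT12 mice, and Arrdc3 in both groups of the ZT12 session, while Txnip is lowest in sedentary ZT16 mice and highest at +3h.

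Arrdc2 and Arrdc3 also varied together from mouse to mouse. Pearson's r of their log2 CPM was 0.85 over the 24 quadriceps libraries and 0.75 over the 16 gastrocnemius libraries. After each group's mean was taken out it was 0.70 and 0.71. Arrdc1, taken in this second way, had r of 0.59 and 0.46 with Arrdc3, and 0.47 and 0.27 with Arrdc2. Over all libraries its r was -0.08 and -0.54 with Arrdc3, and 0.20 and -0.61 with Arrdc2. These values describe libraries that share depth and scaling, and no p is given. The second night wheel ZT16 mouse was the lowest of its group for both genes, at 31.1 and 35.3 CPM, and the first +3h runner of the ZT12 session was the lowest of its group for both, at 71.7 and 66.9 CPM.

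**Figure D3:**
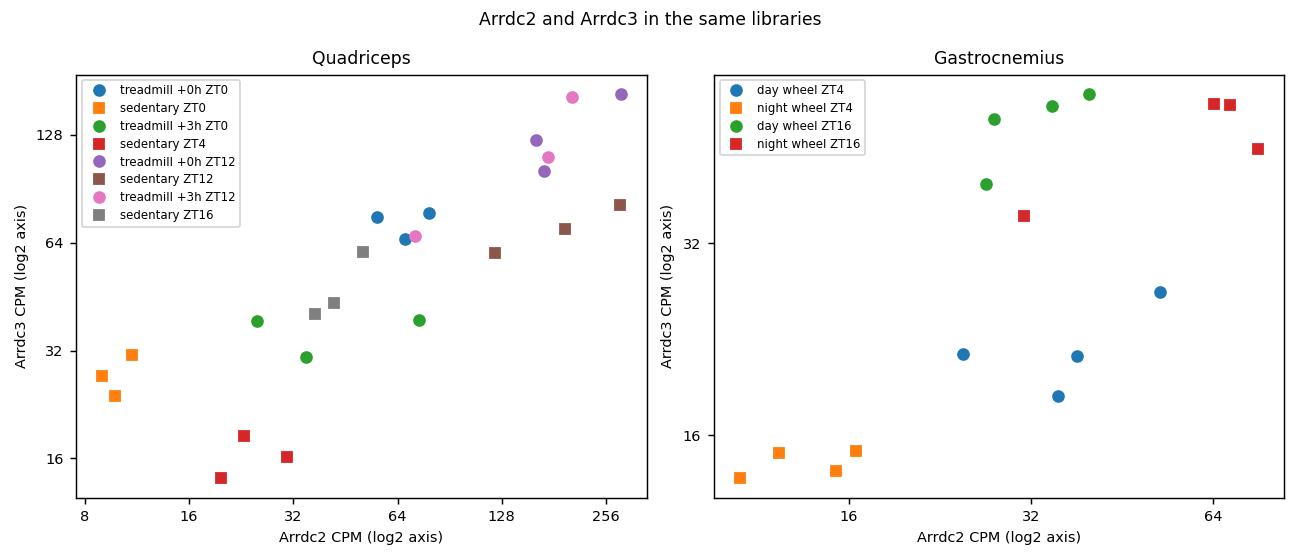
Arrdc2 level (x, CPM, log2 axis) against Arrdc3 level (y, CPM, log2 axis) in each library of quadriceps and of gastrocnemius; symbols and colours are groups. The library lowest in Arrdc2 is also the lowest in Arrdc3 in 7 of 12 groups, such as night wheel ZT16, and not in the other 5, such as treadmill +3h ZT0.

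The genes most like each member over the 24 quadriceps libraries were ranked by r among 11052 genes with an average log2 CPM of at least 1. For Arrdc3 the first was Tsc22d3, a glucocorticoid-induced leucine zipper protein, with r = 0.92, and r = 0.88 over the gastrocnemius libraries. Its level was 211 ± 22.1 CPM in day wheel mice at ZT16 and 180 ± 23.3 CPM in day wheel mice at ZT4, beside 268 ± 50.1 CPM and 106 ± 2.25 CPM in night wheel mice at those times (SD, n = 4 each). Ifi205, Map3k6 and Leng9 followed with r between 0.88 and 0.89. For Arrdc2 the first was Slc10a6, a transporter of steroid sulfates (r = 0.96, and 0.60 in gastrocnemius), then the kinase gene Snrk (0.93 and 0.72), Tyw1 (0.92 and -0.06) and the transcription factor gene Cebpd (0.89 and 0.48). Slc10a6 lay low, with group means from 0.48 to 4.65 CPM in quadriceps and from 0.78 to 1.33 CPM in gastrocnemius. For Txnip the first was the vesicle trafficking gene Rab11b (0.84 and 0.61), followed by Oga, which removes O-linked N-acetylglucosamine from proteins (0.83 and 0.77), Hbp1 (0.83 and 0.35) and Nr6a1 (0.83 and 0.73). For Arrdc4 it was Gtf2e2, at 0.79 in quadriceps and -0.34 in gastrocnemius, followed by the Notch ligand gene Dll1 (0.79 and 0.56), Bcar1 and Bcl6b. These r values come from the same libraries and scaling, and each is among the 4 highest of 11052 genes.

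Arrdc4 (gene identifier 66412, chromosome 7, 68736994 to 68749238, minus strand), the relative of Txnip in the glucose response, moved by less than the 2 genes above. In gastrocnemius it stood at 13.1, 10.7, 10.02 and 11.5 CPM in day wheel mice at ZT16, against 9.30, 7.79, 8.39 and 9.13 CPM at ZT4. Night wheel mice had 9.44, 9.98, 11.4 and 9.62 CPM at ZT16, against 10.2, 10.8, 11.4 and 11.01 CPM at ZT4. The day wheel libraries of the 2 times did not overlap and those of the night wheel did. It fell with the day wheel at ZT4 by 0.33 on the log2 scale (SE 0.08, adjusted p = 0.014) and rose at ZT16 with the day wheel by 0.39 (SE 0.08, adjusted p = 0.0034). The difference of the time effects was 0.49 (SE 0.12, adjusted p = 0.011). Night wheel ZT4 libraries held 340 to 356 CPM of summed endothelial markers, above the 252 to 311 CPM of the other 3 groups; the part of this in the results that use them was not tested.

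In quadriceps at +3h of the ZT12 session Arrdc4 stood at 7.41, 7.03 and 7.49 CPM, against 9.58, 12.8 and 17.0 CPM in sedentary ZT16 mice. It fell by 0.85 (SE 0.19, adjusted p = 0.0034), the sedentary mice being widely spread and the runners not. Against sedentary ZT12 mice, with 8.35, 8.96 and 9.08 CPM, the log2 fold change was -0.27, given with no test. After the ZT0 session it had 12.1, 9.05 and 8.63 CPM, against 10.6, 13.6 and 15.9 CPM in sedentary ZT4 mice (log2 fold change -0.43, SE 0.18, adjusted p = 0.14). At +0h its libraries lay above those of the sedentary mice in both sessions, with 11.7, 16.2 and 12.6 CPM against 8.07, 9.52 and 11.2 CPM at ZT0, and 11.7, 13.0 and 11.1 CPM against 8.35, 8.96 and 9.08 CPM at ZT12.

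Txnip (gene identifier 56338, chromosome 3, 96557957 to 96561857, plus strand), which binds thioredoxin and restrains glucose uptake, was the most abundant member and was lower at ZT16 than at ZT4. In day wheel mice it stood at 473, 413, 383 and 425 CPM at ZT16, against 677, 539, 474 and 682 CPM at ZT4. In night wheel mice it stood at 268, 275, 311 and 316 CPM at ZT16, against 630, 707, 648 and 854 CPM at ZT4. No library of ZT16 reached the lowest of ZT4 under either schedule, with the day wheel by a very narrow margin (473 against 474 CPM). It fell at ZT16 by 0.49 with the day wheel (SE 0.12, adjusted p = 0.016) and by 1.28 with the night wheel (SE 0.12, adjusted p = 8.7e-06). The difference of the time effects was 0.79 (SE 0.17, adjusted p = 0.011). Without the first or the fourth day wheel ZT4 mouse the adjusted p of the day wheel fall was 0.051. At ZT16 all day wheel mice lay above all night wheel mice, by 0.53 (SE 0.12, adjusted p = 0.069).

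Txnip libraries at +3h lay above those of the sedentary mice nearest in hour, and the rise passed after the ZT12 session only. After the ZT12 session it stood at 811, 913 and 906 CPM, against 407, 435 and 527 CPM in sedentary ZT16 mice, and it rose by 0.94 (SE 0.13, adjusted p = 4.0e-05). After the ZT0 session it stood at 916, 916 and 1063 CPM, against 818, 699 and 723 CPM in sedentary ZT4 mice, and the log2 fold change of 0.37 (SE 0.13, adjusted p = 0.061) did not pass. The runners of both sessions lay above their sedentary mice. Set against sedentary ZT12 mice, with 791, 634 and 625 CPM, the value after the ZT12 session was 0.36, and set against sedentary ZT0 mice the value after the ZT0 session was 0.77, both given with no test. The difference between the sessions was 0.57 against the controls at ZT16 and ZT4 (SE 0.18, adjusted p = 0.13) and -0.42 against those at ZT12 and ZT0. In sedentary mice Txnip fell at ZT16 against ZT4 by 0.71 (SE 0.13, adjusted p = 0.0016). At +0h it had 519, 635 and 795 CPM against 540, 589 and 563 CPM in sedentary ZT0 mice, and 661, 565 and 601 CPM against 791, 634 and 625 CPM in sedentary ZT12 mice, and both pairs overlapped.

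**Figure D4:**
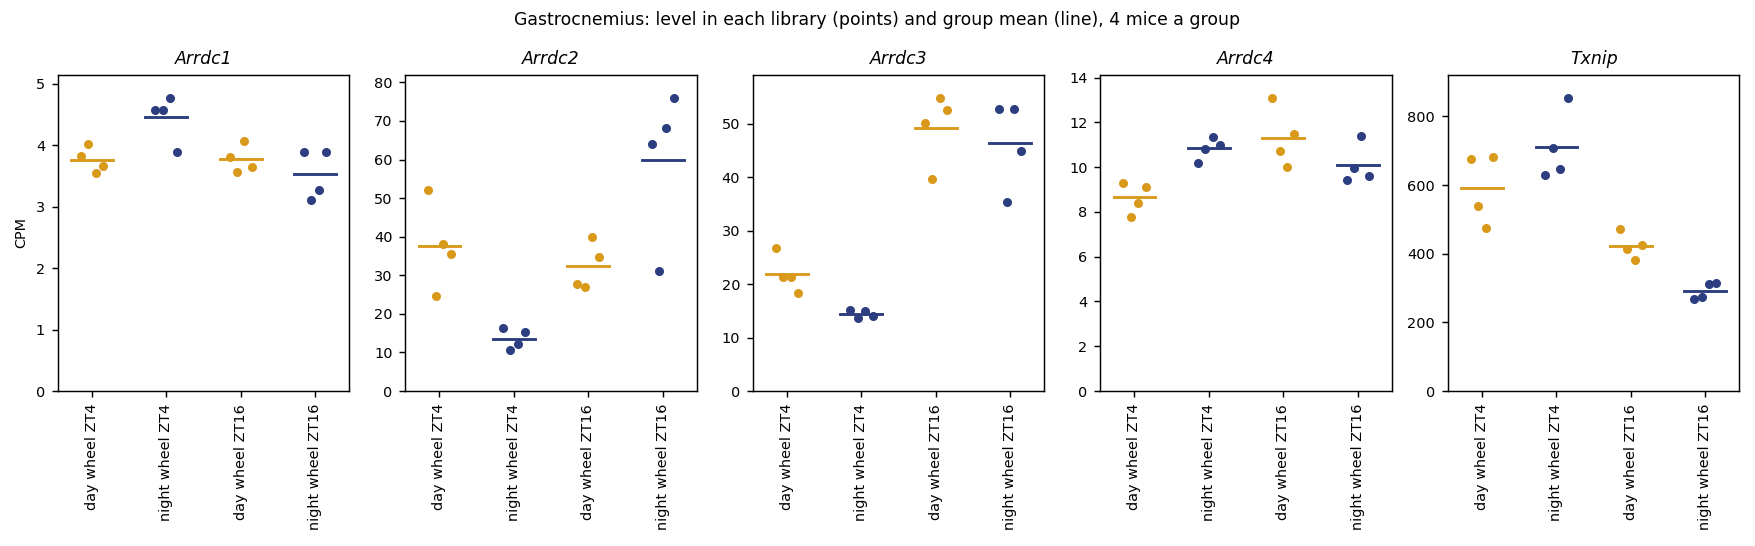
Level (CPM, linear axis from 0) of each gene in each gastrocnemius library (points) and the mean of the 4 mice of a group (lines), with day wheel in yellow left of night wheel in blue at each time. Txnip is lower at ZT16 than at ZT4 under both schedules and Arrdc3 is higher, while for Arrdc2 the times separate in night wheel mice and overlap in day wheel mice.

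Txnip did not follow the other members from library to library in quadriceps, where its r was -0.02 with Arrdc3, 0.16 with Arrdc2 and -0.36 with Arrdc4. In gastrocnemius its r with Arrdc3 was -0.83 over the 16 libraries and 0.02 once the group means were taken out. The opposite pattern of these 2 genes there lay between the groups, not between mice of a group. With Arrdc4 its r there was 0.02 over all libraries and 0.61 once the group means were taken out, and its r with Arrdc4 within the quadriceps groups was 0.09.

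Ordered by their means, the quadriceps groups overlapped at most steps. Arrdc2 averaged 9.89 ± 0.98 CPM in sedentary ZT0 mice and 24.5 ± 5.58 CPM in sedentary ZT4 mice, and each of these groups lay wholly below the next. From sedentary ZT16 mice, at 43.3 ± 6.94 CPM, up to +0h of the ZT12 session, at 204 ± 68.2 CPM, every neighbour overlapped. Arrdc3 ran from 16.2 ± 2.21 CPM in sedentary ZT4 mice to 130 ± 33.1 CPM at +0h of the ZT12 session, with gaps above sedentary ZT4 and above +3h of the ZT0 session only. Txnip ran from 457 ± 62.9 CPM in sedentary ZT16 mice to 965 ± 84.9 CPM at +3h of the ZT0 session, with a gap next to each of these ends (SD, n = 3 in each group). Arrdc4 had its lowest mean at +3h of the ZT12 session, 7.31 CPM, and its highest at +0h of the ZT0 session, 13.51 CPM.

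Arrdc1 (gene identifier 215705, chromosome 2, 24925352 to 24935335, minus strand), which helps vesicles bud, varied least. Its libraries ranged from 2.68 to 4.96 CPM in quadriceps and from 3.11 to 4.77 CPM in gastrocnemius. With the night wheel it had 3.88, 3.11, 3.27 and 3.88 CPM at ZT16, against 4.57, 4.57, 4.77 and 3.89 CPM at ZT4. The last ZT4 mouse was barely above the ZT16 mice. It fell by 0.32 (SE 0.10, adjusted p = 0.023), a call lost in 5 of 8 fits that left out 1 of these mice, with adjusted p up to 0.075 (without ZT4 mouse 1, 2 or 3, or ZT16 mouse 2 or 3). In the other 8 tested comparisons it did not pass, with log2 values between -0.27 and 0.33. Runners at +3h differed from sedentary mice in its level by -0.15 (95% interval -0.47 to 0.16) in the ZT0 session and by -0.03 (95% interval -0.34 to 0.28) in the ZT12 session. Given with no test, the +0h libraries of the ZT12 session had 3.75, 2.95 and 3.75 CPM, against 4.80, 4.96 and 4.54 CPM in sedentary ZT12 mice. That pair did not overlap (log2 fold change -0.45, SE 0.15). The sedentary ZT12 libraries lay above those of every other quadriceps group. The +0h libraries of the ZT0 session overlapped those of sedentary ZT0 mice. The gene most like it was Pdcd4, with r = 0.76 in quadriceps and 0.90 in gastrocnemius.

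The gene lists were chosen with earlier results of these data known. Their counts are to be read beside the shares of all genes given above for each comparison. At +3h 8.7% of all genes rose and 8.53% fell in the ZT12 session, and 6.96% rose in the ZT0 session. Of 10 tested NEDD4-family ligases and adaptors, 4 rose and 1 fell at +3h of the ZT12 session (median log2 fold change 0.12, against 0.00 over all genes), and 3 rose and 1 fell at +3h of the ZT0 session (median 0.01). Smurf1, a ligase of that family, fell in the ZT12 session by 0.43 (SE 0.07, adjusted p = 0.00014) and in the ZT0 session by 0.45 (SE 0.07, adjusted p = 0.00012). Nedd4l, a ligase that also acts on sodium channels, rose at +3h of the ZT0 session by 0.67 (SE 0.14, adjusted p = 0.0035). Of 12 genes of the thioredoxin system 3 rose at +3h of the ZT12 session, led by Srxn1, which repairs overoxidised peroxiredoxins, at 199 ± 39.9 CPM against 41.2 ± 10.5 CPM in sedentary ZT16 mice (SD, n = 3 each). After the ZT0 session 2 of the 12 rose.

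Of 13 tested genes of glucose entry and glucose response, 4 rose and 0 fell at +3h of the ZT12 session, among them Hk2, the hexokinase that traps glucose, by 1.42 (SE 0.13, adjusted p = 1.9e-07). In the ZT0 session 2 rose and 1 fell, with Hk2 at 846 ± 88.4 CPM in the runners and 257 ± 11.4 CPM in sedentary ZT4 mice (SD, n = 3 each). Of 9 tested MLX and MAX partners, 0 passed at +3h of the ZT0 session and 1, Mlx, fell at +3h of the ZT12 session by 0.34 (SE 0.10, adjusted p = 0.020). Max, Mga and Mnt, partners of the MAX network, had lower time effects with the day wheel than with the night wheel, with differences of -0.40 (adjusted p = 0.0043), -0.39 (adjusted p = 0.041) and -0.39 (adjusted p = 0.042).

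Of 14 tested glucocorticoid responsive genes, a list that holds Tsc22d3, 10 rose and 0 fell at ZT16 against ZT4 with the night wheel (median log2 fold change 0.70), and 2 rose and 1 fell with the day wheel (median -0.02). The difference between the schedules passed for 4 of the 14, all below 0, and not for 10, with Klf15, a muscle factor of amino acid use, at -1.27 (SE 0.18, adjusted p = 0.00071) and Tsc22d3 at -1.12 (SE 0.17, adjusted p = 0.0010). In quadriceps 6 of these rose at +3h of the ZT0 session and 8 rose and 1 fell at +3h of the ZT12 session. Of 12 FoxO-linked genes, 1 rose and 6 fell at ZT16 with the day wheel, and 3 rose and 0 fell with the night wheel. The difference passed above 0 for 1, the FoxO factor gene Foxo6, at 1.4997 (SE 0.17, adjusted p = 3.0e-05), and below 0 for 4, among them Gabarapl1, an autophagy gene, at -1.22 (SE 0.15, adjusted p = 0.00013). In quadriceps 6 of the 12 rose at +3h of the ZT0 session (median 0.63), and 8 rose and 1 fell at +3h of the ZT12 session (median 0.88). Trim63, a ubiquitin ligase of muscle protein breakdown, averaged 1991 ± 683 CPM in runners of the ZT12 session and 170 ± 26.5 CPM in sedentary ZT16 mice (SD, n = 3 each). Pdk4, a kinase that holds back glucose oxidation, rose there by 3.77 (SE 0.31, adjusted p = 2.8e-07), and its response exceeded that of the ZT0 session by 2.44 (SE 0.40, adjusted p = 0.0047). In sedentary mice 0 of the 12 rose and 2 fell at ZT16 against ZT4, and 10 did not pass (median 0.01). The 2 were Fbxo32, by 1.36 (SE 0.23, adjusted p = 0.0011), and Pdk4, by 1.68 (SE 0.29, adjusted p = 0.0014).

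Of 5 tested relatives that share the arrestin fold, 1 rose at +3h of each session, the retromer gene Vps26a, by 0.20 in the ZT12 session (SE 0.06, adjusted p = 0.031) and by 0.22 in the ZT0 session (SE 0.06, adjusted p = 0.018). Arrb1, a beta-arrestin, fell at ZT16 against ZT4 in sedentary quadriceps by 0.41 (SE 0.09, adjusted p = 0.011) and in night wheel gastrocnemius by 0.48 (SE 0.09, adjusted p = 0.0016).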

How the data were processed

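The members and the gene lists were chosen with earlier results of these data known. The deposited table holds estimated counts for each gene and lane, which the authors made from stranded, polyA-selected libraries; the submitters' processing notes list the tools kallisto 0.46.2, bcl2fastq 2.20.0.422 and DESeq2 1.26.0 and the builds GRCm38.p6 and mm10, with no annotation named. Both lanes of a library were added and then rounded. No pair of libraries of a group differed as little as sampling noise (lowest chi-square per degree of freedom 5.90 over 48 pairs).

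Genes were tested with edgeR 4.0.16 (R 4.3.3, limma 3.58.1; robust quasi-likelihood fit, TMM scaling, minimum count 10, Benjamini-Hochberg adjustment, threshold 0.05) over 15097 quadriceps and 14523 gastrocnemius genes, with all libraries of a muscle in 1 fit. Alternatives were DESeq2 1.42.0, RLE scaling, no filter, a replicate block, fewer libraries, marker scores as covariates, leaving out each mouse and, at +3h, the sedentary group at the start of the session. Named genes were the members, the 3 smallest p of each list among genes that passed, and the 4 genes with the highest r to each member. Levels are CPM with TMM-scaled totals, given as mean ± SD. Reads that fit several transcripts are shared out by kallisto's model. The list of receptors, transporters and sorting partners is not reported here.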

Additional observations from a re-analysis of the deposited data

Results flagged for a closer look

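The time effect of ZT16 against ZT4 differed between the wheel schedules for 3 of the 5 genes, by a test of the difference itself. Day wheel minus night wheel, it was -2.35 for Arrdc2, 0.49 for Arrdc4 and 0.79 for Txnip, on the log2 scale. For Arrdc2 the night wheel mice showed the larger effect and for Txnip the larger fall, and for Arrdc4 the day wheel mice showed the rise. By Dixon's test of the gap to the nearest library, none of 20 gastrocnemius groups of values (5 genes in 4 groups) was past the limit for 4 libraries. That limit is wide at this size: the second night wheel ZT16 mouse, at 31.1 CPM of Arrdc2 beside 64.1 to 76.0 CPM in the others, stayed within it.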

How the results depend on the processing

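Of 415 values recomputed under another setting, 382 were counted as unchanged, as were 517 of 540 with 1 library left out. In the tested comparisons, unchanged meant the same direction and side of the threshold. In the comparisons with no test, it meant a move smaller than the SD between libraries of a group. A value near 0 could then change sign: Arrdc2 at +0h of the ZT12 session ran from -0.27 to 0.36 with 1 library left out. The choice of sedentary control changed the most. Against sedentary mice at the start of the session, the log2 fold change at +3h of the ZT0 session was 0.056 for Arrdc1, 2.17 for Arrdc2, 0.40 for Arrdc3, 0.048 for Arrdc4 and 0.77 for Txnip. For the ZT12 session these values were -0.53 for Arrdc1, -0.41 for Arrdc2, 0.69 for Arrdc3, -0.27 for Arrdc4 and 0.36 for Txnip. The difference of these responses was then -0.58 for Arrdc1, -2.59 for Arrdc2 and -0.42 for Txnip. These values use the libraries the genes were selected on, so no call is read from them. In fits of the compared groups alone, Txnip passed at +3h of the ZT0 session (0.37) and between the schedules at ZT16 (0.53), while Arrdc2 (1.79) and Arrdc3 (1.24) at +3h of the ZT12 session and Arrdc1 with the night wheel (-0.33) did not. DESeq2 called Txnip in the first 2 of these (0.38 and 0.53) and the schedule difference of Arrdc3 (-0.52). Arrdc1 with the day wheel, near 0, turned negative with RLE scaling (-0.0045), no filter (-0.0023), the compared groups alone (-0.0026) and DESeq2 (-0.006). The adipocyte score gave Txnip 0.37 at +3h of the ZT0 session, now passing, Arrdc4 0.32 at +0h of the ZT12 session and -0.29 for the difference at +0h, Txnip -0.16 for that difference, and Arrdc1 0.37 for sedentary ZT12 against ZT0, where the slow fibre score gave 0.51. The cause of these changes was not tested.

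Replicate numbers did not pair the libraries: of 34 pairs of groups, 1 had every same-numbered correlation over 0.1, and the correlations ran from -0.47 to 0.36. With a replicate block, Txnip between the schedules at ZT16 (0.53) and the schedule difference of Arrdc3 (-0.50) passed, and no other member's call changed.

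With 1 library left out, Arrdc1 ran from -0.24 to 0.13 at +3h of the ZT12 session and from -0.084 to 0.28 for the difference of the +3h responses, where Arrdc3 ran from -0.26 to 0.36. Arrdc4 ran from -0.25 to 0.16 for sedentary ZT16 against ZT4, and Arrdc3 from -0.024 to 0.18 between the schedules at ZT16. ZT16 against ZT4 ran from -0.39 to -0.27 for Arrdc1 with the night wheel, from -0.037 to 0.037 for Arrdc1 with the day wheel and from -0.58 to -0.41 for Txnip with the day wheel. The schedule difference of Arrdc3 ran from -0.63 to -0.41 and passed without the second night wheel ZT16 mouse (adjusted p = 0.031 in edgeR). Arrdc2 at +3h of the ZT0 session ran from 0.30 to 1.15. Over all genes, fits of the compared groups alone called 1105 at +3h of the ZT0 session (2052 in the joint fit), 113 for the difference of the +3h responses (240) and 35 between the schedules at ZT16 (82). With 1 library left out, the last 2 counts ran from 107 to 235 and from 19 to 163, and +3h of the ZT12 session from 1724 to 2303 (2602 with all). Arrdc1, at 109 to 324 counts, is the member whose precision depth limits most.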
